A study of Mus musculus with 6 samples.

Results

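The genes described here are 55 protein-coding genes that RAW264.7 macrophages already expressed on their own and whose mean level was at least 2 times higher after coculture with TTJ cells. They were selected on measured values of these same libraries. A gene qualified if its mean CPM (counts per 1000000 counts of the library) was at least 10 in macrophages grown alone and at least 2 times that mean in cocultured macrophages. Of 8472 protein-coding genes with at least 10 CPM alone, 83 met both limits, which is 0.980% of them. A further step by gene name removed 28 of the 83, among them MHC, interferon-induced, integrin, chemokine and solute carrier families, and left 55 of the 22046 protein-coding genes in the table. Because the selection used the difference between the groups, the values below describe that difference and no test of it is given for these genes.

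RAW264.7 is an established mouse macrophage line, labelled wild type, and TTJ is a Tsc2-null mouse line derived from an angiomyolipoma of a mouse model of tuberous sclerosis. The study asked what Tsc2-null cells do to the polarization of macrophages. Poly-A RNA was sequenced from 3 libraries of sorted RAW264.7 cells without treatment (alone A, B and C) and from 3 libraries of sorted RAW264.7 cells after 48 h of coculture with TTJ cells (coculture A, B and C). Both groups are 1 cell line, and no library of TTJ cells alone was used here.

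Macrophages are phagocytes of tissues that change their surface receptors, secreted enzymes and metabolism with the cells around them. Complement proteins tag targets for uptake and release fragments that macrophages sense through receptors, and the urokinase system, made of a secreted protease and its surface receptor, activates plasminogen at the cell surface. Type I interferon induces a broad antiviral set of genes, and transforming growth factor beta (TGF-beta) is a regulator of macrophage differentiation and of matrix remodelling.

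Library totals ran from 14621832 to 17358280 counts alone and from 14329487 to 16976782 in coculture. Over all genes tested with the quasi-likelihood test of edgeR, 2819 of 12972 were higher in coculture (21.7%) and 1974 were lower (15.2%) at a Benjamini-Hochberg adjusted p under 0.05. The summed level of 15 macrophage markers was 14664 to 14712 CPM alone and at 15193 to 15458 CPM in coculture. Lyz2 was the largest part of this sum, at 6751 CPM alone and 7266 CPM in coculture. The markers did not all move the same way. Laptm5 went from 946 to 847 CPM, Cd68 from 658 to 616, Spi1 from 360 to 308 and Tyrobp from 247 to 201. Fcer1g was slightly lower, and the other markers had higher means in coculture, with Itgam going from 53.2 to 99.3 CPM. Markers of renal and simple epithelium summed to 0 to 0.115 CPM alone, with 3 of 15 genes counted, and to 359 to 417 CPM in coculture, with 12 of 15 counted and Epcam, Lhx1 and Cldn7 at 0. Mesenchymal and smooth muscle markers summed to 1.79 to 2.19 CPM alone, with 7 of 19 genes counted. In coculture they summed to 84.3 to 95.9 CPM, with 15 of 19 counted and Col3a1, Pdgfra, Myl9 and Thy1 at 0. Most of the cocultured sum came from Sparc, Col5a1, Timp3 and Cav1, at 23.9, 25.6, 17.9 and 15.2 CPM. Smooth muscle and pericyte genes changed little: Acta2 was at 0.986 and 1.41 CPM, Pdgfrb at 0.547 and 0.496, and Tagln at 0.297 and 0.212. T and NK cell markers stayed between 0.0589 and 0.349 CPM in all libraries, and B cell markers reached 5.37 to 7.54 CPM in coculture, of which Pax5 made up 6.06 ± 0.960 CPM (SD, n = 3) while Ms4a1 was at 0. The part of RNA from other cells in the values of the 55 genes was not tested. In bulk RNA, a change in the share of a cell type and a change in RNA per cell cannot be told apart.

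The 55 genes together held 0.175% ± 0.000622 of all counts alone and 0.453% ± 0.00183 in coculture (mean ± SD, n = 3 libraries per group). The share was 0.176%, 0.174% and 0.174% in alone A, B and C and 0.451%, 0.455% and 0.454% in coculture A, B and C. The 3 libraries of each group lay close together, and the groups were far apart. Beside them, 688 genes without a single count alone and with at least 10 counts in coculture held 0.294% ± 0.0172 of the counts in coculture. The highest of those, Cdh16, a kidney cadherin, reached 122 ± 12.6 CPM, and their median was 1.10 CPM. The difference between group means ranged from 10.9 to 367 CPM over the 55 genes, with a median of 35.4 CPM. It exceeded the level of Cdh16 for Dab2, Plau, Sdc3, Agrn and Spink5. The level of these genes in TTJ cells was not measured here, and the source of the added RNA was not tested.

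The ratio of group means ranged from 2.004 to 4.79 with a median of 2.49, against a median of 0.983 over the 8472 genes with at least 10 CPM alone. Of the 55 ratios, 2 were at least 4, 11 at least 3 and 29 between 2 and 2.5. Every cocultured library lay above every lone library for all 55 genes. The same held for 1822 of the 8472 genes (21.5%), and since the selection used these values nothing is read from that comparison. The lowest cocultured library was 1.65 to 3.95 times the highest lone library, and at least 2 times for 35 of the 55 genes. The median of this quotient was 2.17 over the 55 genes and 0.894 over all 8472. The selection bears on it as well, so nothing is read from it.

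**Figure D1:**
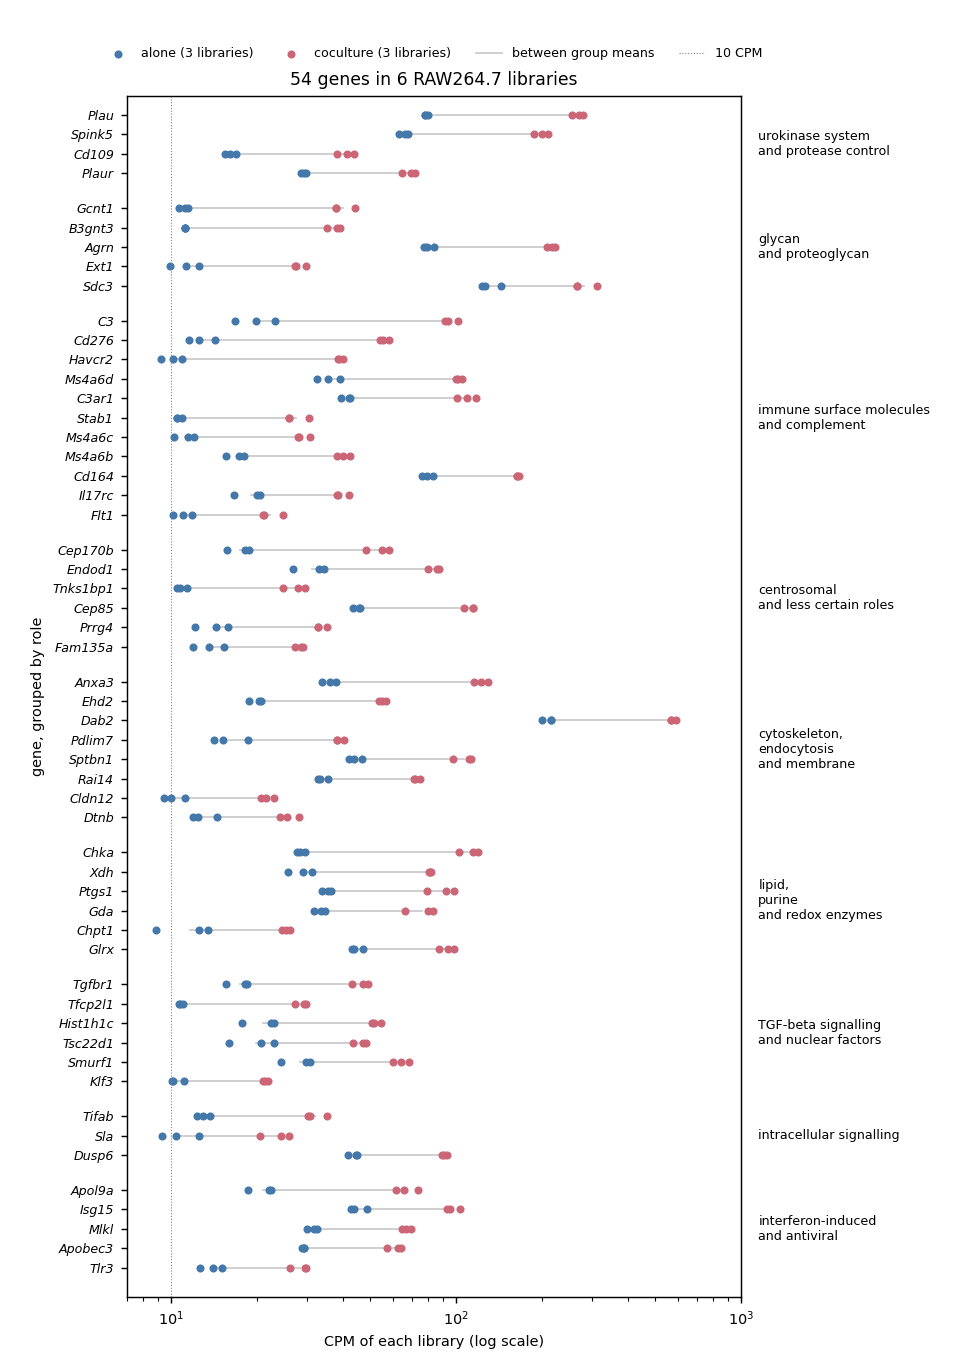
CPM of 54 of the 55 genes in each library on a log axis, grouped by role, with blue points for the 3 libraries grown alone, red points for the 3 cocultured libraries and a grey line between the group means. No red point lies at or left of a blue point of the same gene, and most genes sit between 10 and 100 CPM.

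Most of the 55 genes were modestly expressed before coculture. Their median was 19.98 CPM alone, against 55.1 CPM for all 8472 genes, with 28 genes at 10 to 20 CPM, 21 at 20 to 50 CPM and 6 above 50 CPM. On the length-normalised scale (FPKM, reads scaled to transcript length and library size), their median level was 3.79 alone and 10.8 in coculture, against 11.7 and 11.8 for all 8472 genes. The typical gene of the set thus moved from well below the median of expressed genes to close to it. The spread between replicate libraries was a median 6.86% of the mean alone and 5.35% in coculture, against 4.79% and 4.37% over all 8472 genes.

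The genes nearest the limits show how the set was bounded. Inside the fold limit low ratios were those of Dtnb (2.004) and Flt1 (2.03), and just outside it lay the sialic acid-binding receptor Cd33 (34.4 CPM alone and at 68.6 in coculture), Acod1, which makes itaconate (57.8 and 115 CPM), and the lysosomal protease Ctsc (124 and 245 CPM). Inside the level limit the lowest means alone were those of Havcr2 (10.1 CPM), Cldn12 (10.2 CPM) and Klf3 (10.49 CPM). Just outside it lay Traf4 at 9.93 CPM with a ratio of 2.30, Fosl1 at 9.92 CPM with a ratio of 2.45 and Mfhas1 at 9.76 CPM with a ratio of 2.58.

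**Figure D2:**
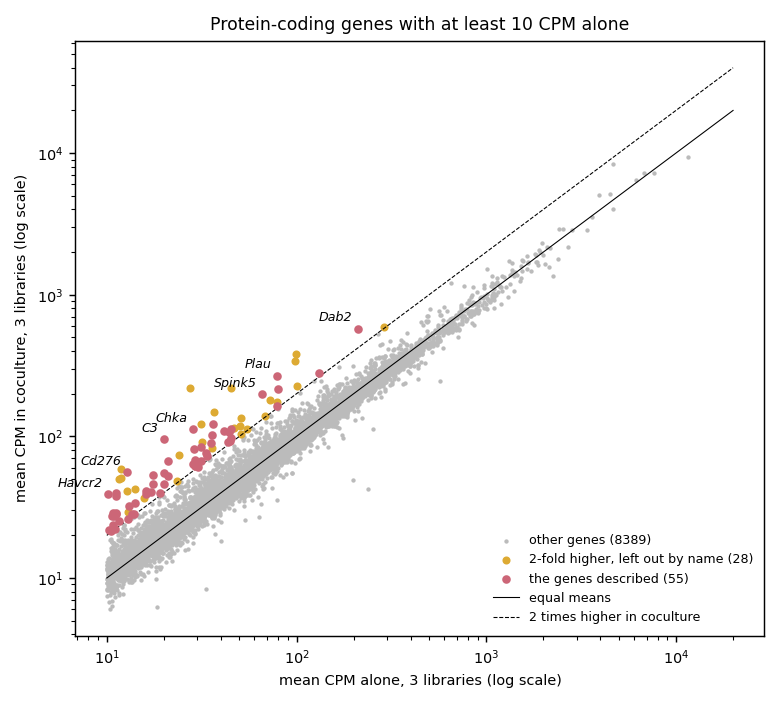
Mean CPM in coculture against mean CPM alone for the 8472 protein-coding genes with at least 10 CPM alone, both on log axes, with the 55 genes in red, the 28 left out by name in yellow and lines at equal means and at 2 times higher. The 55 genes lie on or above the dashed line, mostly at the low end of the expressed range, with Dab2 as the highest of them on both axes.

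Complement and immune surface molecules made up the largest group, with 11 genes and ratios from 2.03 to 4.79. C3, the central complement protein whose cleavage marks targets for uptake, had the largest ratio of the 55. Its level was 23.2, 16.8 and 19.9 CPM in alone A, B and C and 91.6, 101 and 94.0 CPM in coculture A, B and C, or 19.98 ± 3.18 against 95.7 ± 5.10 CPM, a ratio of 4.79. The lowest cocultured library was far above the highest lone one. C3ar1, the receptor for the C3a fragment, was at 39.7, 42.2 and 42.6 CPM alone and at 109, 101 and 117 CPM in coculture, a ratio of 2.63. Ligand precursor and receptor were thus both among the 55 genes, with the larger ratio for C3. C3 lies at chr17:57203970-57228136 and C3ar1 at chr6:122847138-122856161 (mm10). Other complement genes, chosen after the values were seen, are given for context without a test. Properdin (Cfp) was at 243 ± 12.7 CPM alone and at 262 ± 4.03 CPM in coculture. C2 and C4b stayed under 1.5 CPM in both groups, and factor B (Cfb) was at 0.189 ± 0.0796 and 1.18 ± 0.293 CPM.

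Among the immune surface molecules, Cd276 (B7-H3), a member of the B7 family of checkpoint ligands, followed C3. It was at 11.6, 14.31 and 12.6 CPM alone and at 58.3, 54.1 and 55.5 CPM in coculture, or 12.8 ± 1.39 against 56.0 ± 2.11 CPM, a ratio of 4.37. Havcr2 (TIM-3), an inhibitory receptor of T cells and myeloid cells, was at 10.9, 9.22 and 10.2 CPM alone and at 38.6, 38.7 and 40.3 CPM in coculture, a ratio of 3.87. Both genes were among the most weakly expressed of the 55 alone, and the libraries of each group were tightly spaced in coculture. Cd276 lies at chr9:58524298-58555437 and Havcr2 at chr11:46454935-46481255.

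In all, 3 genes of the MS4A family of membrane proteins were in the set. Ms4a6d was at 32.4, 39.3 and 35.6 CPM alone and at 100.3, 105 and 102 CPM in coculture, a ratio of 2.86. Ms4a6c was at 12.04, 10.2 and 11.5 CPM alone and at 30.7, 27.9 and 28.2 CPM in coculture, a ratio of 2.57. Ms4a6b was at 15.6, 17.36 and 18.03 CPM alone and at 42.6, 40.3 and 38.3 CPM in coculture, a ratio of 2.38. The groups did not overlap for any of the 3, as in all 55 genes and in 21.5% of the 8472 expressed genes. Reads of close paralogs may be divided between the 3 genes, so their separate values are uncertain. Other members of the family were low: Ms4a4c was at 0.464 and 1.84 CPM, Ms4a7 at 0.0591 and 1.19 CPM, and Ms4a1 was at 0 in both groups.

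The remaining immune surface genes had ratios from 2.03 to 2.58. Stab1 (stabilin-1), a scavenger receptor, was at 10.7 ± 0.251 CPM alone and at 27.5 ± 2.56 CPM in coculture, a ratio of 2.58. It overlaps Nt5dc2 on the opposite strand, which was at 43.1 CPM alone and at 39.2 CPM in coculture. Cd164, a sialomucin, was at 79.4 ± 3.34 and 165 ± 1.78 CPM, and Il17rc, a subunit of the interleukin 17 receptor, at 19.1 ± 2.15 and 39.6 ± 2.15 CPM. Flt1, the receptor VEGFR1 of vascular endothelial growth factor, was at 10.2, 11.9 and 11 CPM alone and at 24.7, 21.1 and 21.3 CPM in coculture, a ratio of 2.03, and it had the lowest FPKM of the set alone (0.816). Of the other receptors of that growth factor, Nrp1 and Nrp2 had ratios of 0.939 and 0.997, and Kdr was at 0.147 and 0.541 CPM.

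The urokinase system and its neighbours in protease control gave 4 genes with ratios from 2.35 to 3.41. Plau, the urokinase plasminogen activator, was at 78.2, 79.7 and 78.1 CPM alone and at 269.6, 280.2 and 256 CPM in coculture, or 78.7 ± 0.897 against 269 ± 12.2 CPM, a ratio of 3.41. Its length-normalised level in coculture, 113 ± 5.30 FPKM, was the second highest of the 55 after Isg15. Plaur, the surface receptor of urokinase, was at 29.2, 29.9 and 28.7 CPM alone and at 69.3, 71.9 and 64.7 CPM in coculture, a ratio of 2.35. Enzyme and receptor therefore both met the limits, and their lone libraries varied very little. Plau lies at chr14:20836660-20843385 and Plaur at chr7:24462484-24475968.

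Spink5, a serine protease inhibitor best known from skin, was at 63.3, 67.8 and 66.5 CPM alone and at 209.8, 201 and 188 CPM in coculture, a ratio of 3.03. It was thus already well above the level limit in every lone library. Cd109, a membrane-anchored protein of the alpha-2-macroglobulin family, was at 16.2 ± 0.698 and 41.1 ± 2.84 CPM, a ratio of 2.55. Of the other genes of the system, the tissue activator Plat was at 0.165 and 4.46 CPM and the clearance receptor Lrp1 at 1242 and 1341 CPM. Plasminogen itself (Plg) was at 0.

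Of 6 genes for lipid, purine and redox enzymes, Chka had the largest ratio. Chka, choline kinase alpha, catalyses the first step of phosphatidylcholine synthesis from choline and was at 27.7, 28.4 and 29.4 CPM alone and at 103, 119.7 and 115 CPM in coculture, or 28.5 ± 0.873 against 112 ± 8.63 CPM, a ratio of 3.94. Chpt1, which catalyses the last step, was at 8.89, 13.5 and 12.6 CPM alone and at 25.3, 24.6 and 26.3 CPM in coculture, a ratio of 2.18. The lone libraries of Chpt1 were widely spaced, with alone A the lowest, while those of Chka were close together. Other genes of this pathway were not in the set. Pcyt1a, the regulated middle enzyme, was at 75.6 and 71.4 CPM, and Pcyt1b, of the same step, at 0.0392 and 0.844 CPM. Cept1, which shares the last step, was at 69.7 and 70.8 CPM. The second choline kinase gene, Chkb, was at 1.05 CPM alone and at 0.858 CPM in coculture. Chka lies at chr19:3851773-3894369 and Chpt1 at chr10:88452745-88504073.

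**Figure D3:**
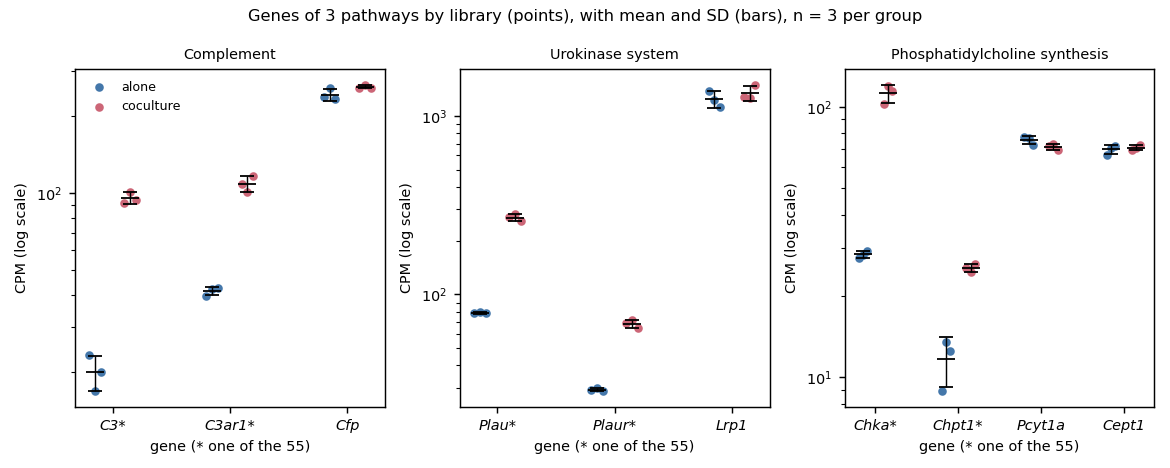
CPM by library on log axes for 3 genes of complement, 3 of the urokinase system and 4 of phosphatidylcholine synthesis, with points for the libraries, bars for mean and SD (n = 3 per group), blue for cells alone, red for coculture and an asterisk for genes of the set. C3, C3ar1, Plau, Plaur, Chka and Chpt1, chosen on this difference, separate the groups, while Cfp, Lrp1, Cept1 and Pcyt1a differ by less than 1.1-fold. The groups of Cfp do not overlap either, as in 21.5% of the 8472 expressed genes.

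Purine breakdown was represented by Xdh and Gda. Xdh, xanthine dehydrogenase, which makes uric acid, was at 31.3, 25.7 and 29.0 CPM alone and at 81.4, 80.5 and 81.5 CPM in coculture, a ratio of 2.83. Its cocultured libraries were almost equal. Gda, guanine deaminase, which supplies xanthine, was at 33.4 ± 1.51 and 76.3 ± 9.07 CPM, a ratio of 2.28. Pnp, which releases guanine and hypoxanthine upstream of both, was at 44.3 ± 4.29 and 66.2 ± 5.396 CPM. Its groups did not overlap, as in 21.5% of the 8472 expressed genes. Ada and the salvage enzyme Hprt had ratios of 1.12 and 0.915. Ptgs1 (cyclooxygenase 1), which starts prostaglandin synthesis, was at 35.3 ± 1.34 and 90.1 ± 9.79 CPM, and Glrx, a glutaredoxin that reduces mixed disulphides with glutathione, at 44.7 ± 2.31 and 93.03 ± 5.57 CPM.

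Among the 5 glycan and proteoglycan genes, Gcnt1 and B3gnt3, enzymes that branch and extend O-linked sugar chains, had the largest ratios. Gcnt1 was at 11.5, 11.2 and 10.7 CPM alone and at 38.0, 38.0 and 44.3 CPM in coculture, a ratio of 3.601. B3gnt3 was at 11.2 CPM in each of alone A, B and C and at 35.4, 39.3 and 38.2 CPM in coculture, a ratio of 3.36. Both began just above the level limit and separated the groups widely. Ext1, a subunit of the heparan sulphate polymerase, was at 11.2 ± 1.29 and 28.1 ± 1.39 CPM, whereas its partner subunit Ext2 was at 93.1 ± 4.82 and 95.4 ± 1.32 CPM.

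Agrn and Sdc3 encode core proteins that carry heparan sulphate. Agrn (agrin) was at 83.5, 77.1 and 79.4 CPM alone and at 208, 217 and 223 CPM in coculture, a ratio of 2.70. Sdc3 (syndecan 3) was at 144, 126 and 123 CPM alone and at 266, 266 and 312 CPM in coculture (ratio 2.14), with coculture C the highest. Of the other core proteins, Sdc1 and Sdc4 had ratios of 1.497 and 1.06, Sdc2 was at 0 and 1.84 CPM, and Gpc1 (glypican 1) was at 0.204 ± 0.135 and 16.6 ± 3.03 CPM. Hspg2 (perlecan) was at 0.0384 ± 0.0665 CPM alone and at 48.5 ± 5.47 CPM in coculture, so it and Gpc1 were nearly absent from lone macrophages, unlike Agrn and Sdc3.

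The 8 genes of the cytoskeleton, endocytosis and membrane group had ratios from 2.004 to 3.40. Anxa3, a calcium-dependent phospholipid-binding annexin, led them with 36.2, 34.0 and 38.1 CPM alone and at 116, 129 and 122 CPM in coculture, a ratio of 3.40. Ehd2, an ATPase of caveolar membranes, was at 20.4, 20.8 and 18.7 CPM alone and at 53.8, 55.2 and 57.0 CPM in coculture, a ratio of 2.77. Dab2, a clathrin adaptor for endocytosis, was at 215, 199.9 and 215 CPM alone and at 592, 569.8 and 568 CPM in coculture, a ratio of 2.75. Dab2 had the highest CPM of the 55 in both groups, and its difference of 367 CPM was the largest. Per length it came after Isg15 and Plau in coculture, at 78.4 FPKM.

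Sptbn1, the nonerythroid beta spectrin, was at 44.3 ± 2.40 CPM alone and at 107 ± 8.08 CPM in coculture. Pdlim7, a PDZ and LIM domain protein of actin filaments, was at 16.0 ± 2.36 and 38.9 ± 1.25 CPM, and Rai14, an actin-associated ankyrin repeat protein, at 33.9 ± 1.58 and 72.6 ± 1.85 CPM. These 3 scaffold genes had ratios between 2.14 and 2.43. Cldn12, a claudin, was at 9.44, 10.00 and 11.2 CPM alone and at 20.7, 22.9 and 21.5 CPM in coculture, a ratio of 2.12. Dtnb (dystrobrevin beta), a component of dystrophin-associated complexes, was at 11.97, 14.5 and 12.4 CPM alone and at 24.2, 28.2 and 25.6 CPM in coculture. Both lay close to a limit of the selection.

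TGF-beta signalling and nuclear factors are described for 6 genes with ratios from 2.04 to 2.67. Tgfbr1, the type I TGF-beta receptor, was at 15.6, 18.4 and 18.3 CPM alone and at 47.0, 49.3 and 43.1 CPM in coculture, a ratio of 2.67. Smurf1, a ubiquitin ligase that targets SMAD proteins and the receptor, was at 28.3 ± 3.43 and 64.3 ± 4.23 CPM, and Tsc22d1, a gene named for its induction by TGF-beta, at 19.9 ± 3.56 and 46.4 ± 2.45 CPM. Of the pathway genes chosen for context, Tgfbr2 had a ratio of 1.021, Tgfb1 of 1.12, and Smad2, Smad3 and Smad4 of 0.914, 1.01 and 1.024. Smad7, an inhibitory SMAD, was at 1.45 ± 0.325 and 5.45 ± 0.663 CPM, a ratio of 3.77 and thus above that of Tgfbr1, and Skil, a SMAD co-repressor, was at 49.0 ± 3.05 and 73.6 ± 2.37 CPM.

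Transcription factors of the set included Tfcp2l1 and Klf3. Tfcp2l1, of the grainyhead-like family, was at 10.7, 10.7 and 11.1 CPM alone and at 29.2, 27.3 and 29.7 CPM in coculture, a ratio of 2.66. Klf3, a Kruppel-like repressor, was at 11.1, 10.1 and 10.2 CPM alone and at 21.8, 21.03 and 21.4 CPM in coculture, a ratio of 2.04. Klf3 sat near both limits. For neither gene did the groups overlap, as in all 55 genes and in 21.5% of the 8472 expressed genes. Related to Tfcp2l1, Tfcp2 had a ratio of 0.897 and Ubp1 of 0.834. Hist1h1c, a linker histone gene, was at 21.1 ± 2.84 and 52.4 ± 1.98 CPM.

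The interferon-induced and antiviral group held 5 genes with ratios from 2.05 to 3.18. Apol9a, an apolipoprotein L gene, was at 22.5, 22.1 and 18.6 CPM alone and at 65.7, 73.8 and 61.8 CPM in coculture, a ratio of 3.18. Its near-identical copy Apol9b was at 4.14 ± 0.806 CPM alone and at 30.3 ± 1.13 CPM in coculture, and reads of the 2 copies may be divided between them, so the value of Apol9a is uncertain. Isg15, a ubiquitin-like protein, was at 42.9, 48.7 and 43.8 CPM alone and at 95.3, 103 and 92.8 CPM in coculture (ratio 2.15). With 59.7 ± 3.95 FPKM alone and 128 ± 7.37 FPKM in coculture it had the highest length-normalised level of the 55 genes in both groups.

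Mlkl, the effector of necroptosis, was at 31.4 ± 1.24 CPM alone and at 67.0 ± 2.48 CPM in coculture, while the kinases upstream of it, Ripk3 and Ripk1, had ratios of 1.005 and 0.938. Apobec3, a cytidine deaminase that restricts retroviruses, was at 29.1 ± 0.297 and 61.5 ± 3.56 CPM. It overlaps Cbx7 on the opposite strand, at 6 and 13.7 CPM, and Ms4a6c likewise overlaps BE692007, at 1.34 and 5.86 CPM. No source used here says whether counting took account of strand, so reads of such overlapping pairs, Stab1 and Nt5dc2 included, cannot be told apart. Tlr3, the endosomal receptor for double-stranded RNA, was at 13.9 ± 1.22 and 28.5 ± 2.02 CPM.

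A group of 3 genes of intracellular signalling had ratios from 2.09 to 2.47. Tifab, a TIFA-related protein, was at 13.7, 12.9 and 12.4 CPM alone and at 30.4, 30.8 and 35.2 CPM in coculture, a ratio of 2.47. Sla, an adaptor that dampens antigen receptor signals, was at 12.5, 9.28 and 10.4 CPM alone and at 26.0, 24.4 and 20.6 CPM in coculture, a ratio of 2.20. Sla had the narrowest gap of the 55 genes, its lowest cocultured library being 1.65 times its highest lone one. Dusp6, a phosphatase of the kinase ERK, was at 43.7 ± 1.75 and 91.2 ± 1.88 CPM.

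The last 6 genes are centrosomal or have a role that is less certain in macrophages. Cep170b, related to a centrosomal protein, was at 18.1, 18.7 and 15.7 CPM alone and at 48.3, 54.97 and 58.1 CPM in coculture, a ratio of 3.07. Endod1, an endonuclease domain protein, was at 26.7, 33.0 and 34.3 CPM alone and at 85.7, 87.4 and 79.8 CPM in coculture, a ratio of 2.69. The centrosomal gene Cep85 was at 45.2 ± 1.53 and 112 ± 4.72 CPM, and Tnks1bp1, whose product binds tankyrase, at 10.9 ± 0.482 and 27.4 ± 2.41 CPM. Prrg4, a membrane protein with a Gla domain, was at 14.1 ± 1.86 and 33.7 ± 1.51 CPM, and Fam135a at 13.6 ± 1.70 and 28.3 ± 0.836 CPM. As in all 55 genes, and in 21.5% of the 8472 expressed genes, the groups of these 6 did not overlap.

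The position of the genes in the genome was not itself used by the selection. The step by gene name did remove whole families from the 55 that the 8472 expressed genes still include. They lay on 17 chromosomes, with 6 of the 55 (10.9%) each on chromosomes 15 and 19, which hold 4.06% and 3.78% of the 8472 expressed genes. On chromosome 15 these were Apobec3, Apol9a, Dab2, Ext1, Rai14 and Sla. On chromosome 19 they were Chka, Gcnt1, Gda and the 3 Ms4a6 genes, which are neighbours among genes with at least 10 CPM alone, with gaps of 34320 bases between Ms4a6c and Ms4a6b and 55348 bases between Ms4a6b and Ms4a6d. Also close together, Agrn and Isg15 lie on the minus strand of chromosome 4 with 1936 bases between them. For 5 of the 55 genes (Agrn, Isg15 and the 3 Ms4a6 genes) the nearest expressed gene was at least 2-fold higher. Among all 8472 expressed genes, 0.980% were at least 2-fold higher. Such a neighbour met both limits, so it was one of the 55 unless left out by name. These 5 genes are neighbours of one another and not separate cases. Over all 55 genes, the median ratio of the nearest expressed gene was 1.03. The median length of the 55 genes was 5269 bases, against 4697 bases for all 8472.

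Promoter sequence was likewise not itself used by the selection. The step by gene name removed interferon-induced families from the set but not from the expressed genes, so the shares below are not like for like. RefSeq windows from 250 bases before to 50 bases after the start (GRCm38.p6) were found for 44 of the 55 genes and searched on both strands for 6 short motifs. Genes with no matched window included Anxa3, Cd109, Endod1, Ext1, Ms4a6d, Plau, Sla, Spink5, Tnks1bp1 and Xdh. The core of the interferon-stimulated response element, GAAANNGAA, was in at least 1 window of 6 of the 44 genes (13.6%), against 8.49% of the expressed genes with a window. Counted by window, since a gene can have several, it was in 11.1% of the 63 windows of these genes and in 8.56% of all windows. Those 6 genes were Apobec3, Apol9a, Dab2, Isg15, Ms4a6b and Ms4a6c. The AP-1 site TGANTCA was in 6 of the 44 (13.6%), against 5.52% of expressed genes, and in 14.29% of the 63 windows against 7.81% of all windows. The genes were Apol9a, C3ar1, Dtnb, Glrx, Havcr2 and Plaur. Windows of Apol9a, Dtnb and Glrx overlap and hold the same AP-1 match, as those of Apol9a do for the interferon element. Shares by window thus count such matches more than once, and all windows include those of genes not expressed here. The interferon gamma-activated site TTCNNNGAA was in 6.82% of the 44 genes against 8.01% of expressed genes, the kB site GGGANTTCC in 2.27% against 2.99%, the E-box CACGTG in 4.55% against 12.9%, and the NRF2 element core TGACNNNGC in 11.4% against 17.1%. No match to one motif overlapped a match to another in the 44 genes. A match is a description of the letters only.

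Stretches upstream of 3 genes with the interferon element are shown because 2 of them belong to the neighbouring Ms4a6 genes and 1 to the gene with the highest FPKM. Capitals mark the matches to GAAANNGAA. The Isg15 stretch is chr4:156200856-156200916 on the minus strand, from 98 to 38 bases before the start, with 3 overlapping matches. The Ms4a6b stretch is chr19:11518333-11518381 and the Ms4a6c stretch chr19:11469215-11469263, both on the plus strand, beginning 226 and 153 bases before their starts. The RefSeq start of Ms4a6b lies inside the span of the gene in the deposited annotation, so its stretch lies within that span.
Isg15: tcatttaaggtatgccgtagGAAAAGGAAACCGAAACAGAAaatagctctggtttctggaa
Ms4a6b: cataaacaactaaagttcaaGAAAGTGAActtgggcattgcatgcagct
Ms4a6c: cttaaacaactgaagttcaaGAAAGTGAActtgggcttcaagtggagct
The Ms4a6b and Ms4a6c stretches were identical at 41 of 49 bases, the whole marked match included, so these 2 matches share their sequence and are not separate examples.

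Stretches with the AP-1 site are shown for the urokinase receptor, for TIM-3 and for glutaredoxin, which come from 3 different role groups. Capitals mark TGANTCA. All 3 are on the plus strand, at chr7:24462394-24462440 for Plaur, chr11:46454711-46454757 for Havcr2 and chr13:75839767-75839813 for Glrx, beginning 89, 220 and 118 bases before the start.
Plaur: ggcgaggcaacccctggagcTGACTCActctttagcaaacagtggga
Havcr2: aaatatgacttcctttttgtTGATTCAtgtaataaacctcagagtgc
Glrx: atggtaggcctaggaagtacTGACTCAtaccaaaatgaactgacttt
Plaur and Glrx carried the same 7 letters, and Havcr2 differed from them within the motif. The ratios of the 3 genes were 2.35, 3.87 and 2.08.

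Of the 55 genes, 16 were on 1 of 10 gene lists of macrophage pathways, and the other genes of those lists show how each pathway stood outside the set. Over all lists, 232 of 425 other genes tested were higher in coculture and 78 lower, beside 21.7% and 15.2% of all genes tested. Calls are from the edgeR quasi-likelihood test with Benjamini-Hochberg adjustment. The lists were chosen with earlier results of these data known, so nothing is read from a difference from those shares. The interferon-induced list held Apobec3, Apol9a, Isg15, Mlkl and Ms4a6d, and of its 76 other genes 66 were higher and 0 lower, with a median log2 change of 0.40 against 0.00288 over all genes tested. Most of that list therefore moved by less than the 2-fold limit. Of its other genes, Ly6a was at 0.124 and 47.1 CPM and Apol9b is given above. Innate immune and inhibitory receptors held C3ar1, Havcr2, Ms4a6b, Ms4a6c, Stab1 and Tlr3. Of 58 other receptor genes, 32 were higher and 10 lower (median 0.32), among them Axl, a receptor for apoptotic cells, at 2.24 and 118 CPM, and the lectin Clec4n at 1.99 and 16.9 CPM.

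The list of alternative activation and growth factor genes held Plau and Tgfbr1. Of its 30 other genes, 24 were higher and 2 lower, with a median log2 change of 1.47, including Myc at 1.61 and 29.7 CPM and Thbs1 at 0 and 38.0 CPM. Of those 30 genes, 10 had at least 10 CPM alone. Genes with almost no counts alone passed the filter through the cocultured libraries and had to differ, so the median is not read as a shift of the pathway. The cytoskeleton list held Anxa3 and Pdlim7, and of its 51 other genes 32 were higher and 8 lower (median 0.17), with the calponins Cnn3 at 0 and 24.0 CPM and Cnn2 at 1.11 and 10.49 CPM. The NF-kB list held Plaur, and of its 39 other genes 13 were higher and 12 lower (median -0.02), with Lcn2 at 1.37 and 18.2 CPM and Saa3 at 1.43 and 12.01 CPM. Plaur thus stood on a list whose other genes were nearly even in direction.

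No gene of the set was on the other 5 lists. Lipid handling genes were higher in 19 and lower in 8 of 42 (median 0.11), with the scavenger receptor Msr1 at 269 and 526 CPM, just under the fold limit, and Vldlr at 0 and 20.95 CPM. Lysosome and phagosome genes were higher in 18 and lower in 16 of 47 (median -0.03), with Ctsc named above and the proton pump subunit Atp6v0d2 at 20.4 and 12.98 CPM. Targets of p53 were higher in 11 and lower in 6 of 30 (median 0.12), with Gdf15 at 0.863 and 13.4 CPM. ATF4 and unfolded protein response targets were higher in 10 and lower in 12 of 30 (median -0.05), with Atf3 at 78.7 and 35.3 CPM and Ddit4, which is also a p53 target, at 7.86 and 24.1 CPM. NRF2, haem and metal response genes were higher in 10 and lower in 5 of 26 (median 0.07), with Osgin1 at 7.64 and 13.5 CPM and Hmox1 at 130 and 191 CPM.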

How the data were processed

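The deposited data are raw counts per gene and FPKM values that the authors computed, per the file headers. The name under which the FPKM were deposited lacks TTJ, while the sample titles and the name of the counts hold it. Within each library the FPKM followed the counts per gene length up to a constant factor. Both thus describe the same libraries, and TTJ is used here as in the titles. The submitters' processing notes name build mm10, the aligner HISAT2 (2.0.5), the counter featureCounts (version 1.5.0-p3) and, as further tools, edgeR 3.22.5 and DESeq2 1.20.0. Their settings, strand included, are not given in the sources used here. CPM were computed from the counts and each column's total, which was 14329487 to 17358280. Group values are mean ± SD of 3 libraries. The labels do not say that replicates were separate cultures, so the spread, and any p-value, may be technical. All genes were tested with edgeR 4.0.16 (R 4.3.3, filterByExpr, TMM, quasi-likelihood, Benjamini-Hochberg), checked on simulated data; DESeq2 1.42.0 and limma 3.58.1 served alternatives. The genes and lists were chosen with earlier results of these data known. Of the 55 genes, 54 are named, and 1 gene of the set and some other genes are not reported here; libraries are given singly for the 10 largest ratios, the 6 highest FPKM in coculture, the 2 largest ratios per role and the 3 genes nearest each limit, with a few others added for their role. From each list up to 2 other genes with at least 10 CPM and the largest change are named. Roles and context genes were chosen after the genes were known. Libraries of the same letter had deviations that were nearly uncorrelated (0.00286, 0.0211 and 0.0394 for A, B and C). With 3 libraries per group this cannot show whether a letter marks a shared culture or day.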

Additional observations from a re-analysis of the deposited data

How the results depend on the processing

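The set of 55 genes depends on its limits. It held 92 genes at a level limit of 5 CPM and 27 at 20 CPM, 216 at a ratio of 1.5 and 11 at a ratio of 3, and 35 where the lowest cocultured library had to be 2 times the highest lone one. TMM scaling gave 54 genes, without Dtnb, and leaving out 1 library gave 53 to 59. The median log2 change of the 55 genes was 1.31, 1.29 with the replicate block (ratios within a letter) and 1.29 to 1.32 with 1 library left out. With 1 library left out, 50 to 54 of the 55 were still at least 2-fold higher, the fewest without alone A. Over all genes, 4793 passed the threshold and 4766 with the replicate block, and of the listed genes outside the set 310 passed and 307 with the block. Counting depth limits genes near 10 CPM most. In the cocultured libraries, RNA of TTJ cells and of macrophages cannot be told apart.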

Other observations

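Outside protein-coding genes, 258 genes had at least 10 CPM alone, and 1 of them, the nuclear long non-coding RNA Neat1, met the same limits. Neat1 was at 113.9, 99.2 and 110.1 CPM in alone A, B and C and at 212, 238.5 and 283.5 CPM in coculture A, B and C, a ratio of 2.27. The groups did not overlap, as in 21.5% of the 8472 expressed protein-coding genes, and coculture C was the highest library.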
